A study of Mus musculus with 8 samples.

Results

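The 10 genes described here carry phosphate reabsorption, the Klotho and parathyroid hormone signals that set it, and vitamin D activation in the kidney. They are Slc34a1, Slc34a3, Slc20a1, Slc20a2, Kl, Fgfr1, Pth1r, Cyp27b1, Cyp24a1 and Vdr, matched by gene ID. They were chosen for their function, with earlier results of these data known. They make up 10 of the 49315 genes in the deposited count tables, and 9 of the 10 passed the filter on low counts. Slc34a3 did not pass and is given by its counts. Messenger RNA was sequenced from 8 mouse kidney libraries, 4 labelled as control and 4 labelled as carrying a conditional knockout of Kdm1a, which encodes the histone demethylase LSD1. No treatment is given for either genotype. The labels call the control tissue wild type in one place and control in another. The strain, age and sex of the mice, the recombinase that deletes Kdm1a, the kidney cells in which it acts and the alleles carried by the controls are not given in the sources used here. The labels also do not say that each library came from a separate animal, so p-values measure the spread between these samples. In a whole kidney, fewer cells of a type and less RNA per cell cannot be told apart.

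Phosphate is taken back from the filtrate mainly in the proximal tubule, by the sodium-phosphate cotransporters that Slc34a1 and Slc34a3 encode. Parathyroid hormone, through its receptor Pth1r, and the bone hormone FGF23, through FGF receptors bound to Klotho, remove these transporters from the brush border. Cyp27b1 makes calcitriol, the active form of vitamin D, in the proximal tubule. Cyp24a1 inactivates calcitriol, and Vdr is the receptor that calcitriol binds. Parathyroid hormone raises and FGF23 lowers Cyp27b1, while both calcitriol and FGF23 raise Cyp24a1.

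Promoter sequences were available for 7 of the 10 genes in the RefSeq table for GRCm38.p6. None was in it for Slc20a2, Fgfr1 and Cyp24a1. The 250 bases before the annotated start are shown for a transporter and an enzyme with large differences between the genotypes, for Kl, and for Slc20a1, whose difference was small. All 4 are on the plus strand, at chr13:55399398-55399647 for Slc34a1, chr10:127047996-127048245 for Cyp27b1, chr5:150952357-150952606 for Kl and chr2:129198523-129198772 for Slc20a1. The end of the Slc20a1 window lies just inside the gene bounds of the deposited tables. Sequences run 5′ to 3′, and capitals mark matches to GTTAAT, part of the motif of the tubule factor HNF1, or to AGGTCA and AGTTCA, single sites of the kind that the vitamin D receptor binds in pairs.
Slc34a1: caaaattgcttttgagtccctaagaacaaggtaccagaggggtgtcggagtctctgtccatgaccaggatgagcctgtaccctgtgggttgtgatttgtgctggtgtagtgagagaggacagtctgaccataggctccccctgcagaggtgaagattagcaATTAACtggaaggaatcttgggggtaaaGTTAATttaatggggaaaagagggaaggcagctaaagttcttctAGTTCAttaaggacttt
Cyp27b1: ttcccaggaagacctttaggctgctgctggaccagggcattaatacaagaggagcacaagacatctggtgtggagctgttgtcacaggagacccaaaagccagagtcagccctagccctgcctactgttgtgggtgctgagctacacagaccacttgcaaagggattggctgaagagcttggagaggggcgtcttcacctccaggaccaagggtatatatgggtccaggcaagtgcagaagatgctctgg
Kl: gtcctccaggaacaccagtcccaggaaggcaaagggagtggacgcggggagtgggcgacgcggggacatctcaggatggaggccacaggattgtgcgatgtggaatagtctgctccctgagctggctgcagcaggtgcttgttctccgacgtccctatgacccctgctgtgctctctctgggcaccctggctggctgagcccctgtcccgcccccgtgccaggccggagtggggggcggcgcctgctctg
Slc20a1: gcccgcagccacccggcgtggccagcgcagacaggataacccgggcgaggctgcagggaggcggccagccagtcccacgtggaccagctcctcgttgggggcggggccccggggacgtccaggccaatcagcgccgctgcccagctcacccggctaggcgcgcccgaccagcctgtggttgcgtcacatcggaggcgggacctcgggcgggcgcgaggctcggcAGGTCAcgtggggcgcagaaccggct
The Slc34a1 window held 2 matches to GTTAAT, at -89 to -84 on the minus strand and at -61 to -56 on the plus strand, counted back from -1 at the base before the start. Among 32851 mouse promoter windows of the same length, 6.43% held GTTAAT on either strand and 0.441% held at least 2 matches. Slc34a1 also held AGTTCA at -17 to -12, a motif present in 11.8% of windows. The Slc20a1 window shown held AGGTCA at -26 to -21, a motif present in 14.0%. Of the windows not shown, another of Slc20a1 and that of Slc34a3 also held AGGTCA, and that of Vdr held AGTTCA. No searched motif was matched in the windows of Cyp27b1 and Kl, which says only that these letters are not in these 250 bases. The direct repeat of a pair of vitamin D receptor sites spaced by 3 bases was in 0.0396% of windows and in none of the 7 genes. The Slc20a1 window shown had a GC content of 75.2% and that of Kl 66.8%, against 54.4% for Cyp27b1, 46.4% for Slc34a1 and a median of 52.4% over all windows. A match is a description of the sequence and not evidence of binding.

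Library totals ran from 19524945 to 28544511 counts, so 1 count stood for 0.0350 to 0.0512 counts per 1000000 counts (CPM). Kdm1a itself was measured at 110, 112, 120 and 110 CPM in control replicates 1 to 4 and at 94.0, 95.3, 90.9 and 94.2 CPM in knockout replicates 1 to 4. Its log2 fold change of -0.27 (adjusted p = 0.0194, SE 0.05) has the direction of the labels in all libraries, and reads outside the deleted part of the gene would still be counted. Its call was lost without control replicates 1 or 3 or knockout replicates 1, 2 or 4, the largest adjusted p being 0.0765. Luzp1 overlaps Kdm1a on the opposite strand, at a mean of 87.3 CPM in controls and 82.0 CPM in knockouts. Gm12987 overlaps it on the same strand, with 7 counts in the controls and 16 in the knockouts. Control replicate 2 and knockout replicate 3 lay next to each other on the first principal component, at 9.56 and 9.71, between the other controls (-78.7 to -52.4) and the other knockouts (48.3 to 68.4). Xist was high and Y-linked transcripts were near 0 in control replicate 2 and knockout replicates 1 and 4, and the reverse held in the other 5 libraries. Adrenal markers summed to 2770 CPM in knockout replicate 1, 383 CPM in knockout replicate 4, 154 CPM in control replicate 4 and between 17.7 and 24.7 CPM in the other 5. The labelled tissue held markers of the proximal tubule, thick ascending limb, distal tubule, collecting duct, podocytes and endothelium in all 8 libraries.

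Of the 9 tested genes, 5 fell in the knockout and 0 rose at an adjusted p under 0.05 in edgeR's quasi-likelihood test: Slc34a1, Kl, Pth1r, Cyp27b1 and Cyp24a1. Over all 18485 genes tested, 14.9% were called in either direction and 8.27% were called lower. At an unadjusted p under 0.05, 7 of the 9 were lower and 0 were higher, and DESeq2 and limma-voom called 0 higher. More of all genes pass that unadjusted threshold than the 14.9% called. Their share is not given here, so counts at that threshold, here and below, have no share of all genes beside them. The median log2 fold change of the 9 was -1.35, against 0.00 over all genes. In 5 of the 10 genes every knockout library lay below every control library, and 4 of these 5 were among the tested genes. The same separation held for 9.58% of all genes tested. Of the 9, Cyp27b1 and Cyp24a1 fell most, to 6.35% and 7.41% of the control mean, and Slc20a2 and Fgfr1 had intervals that include 0.

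**Figure D1:**
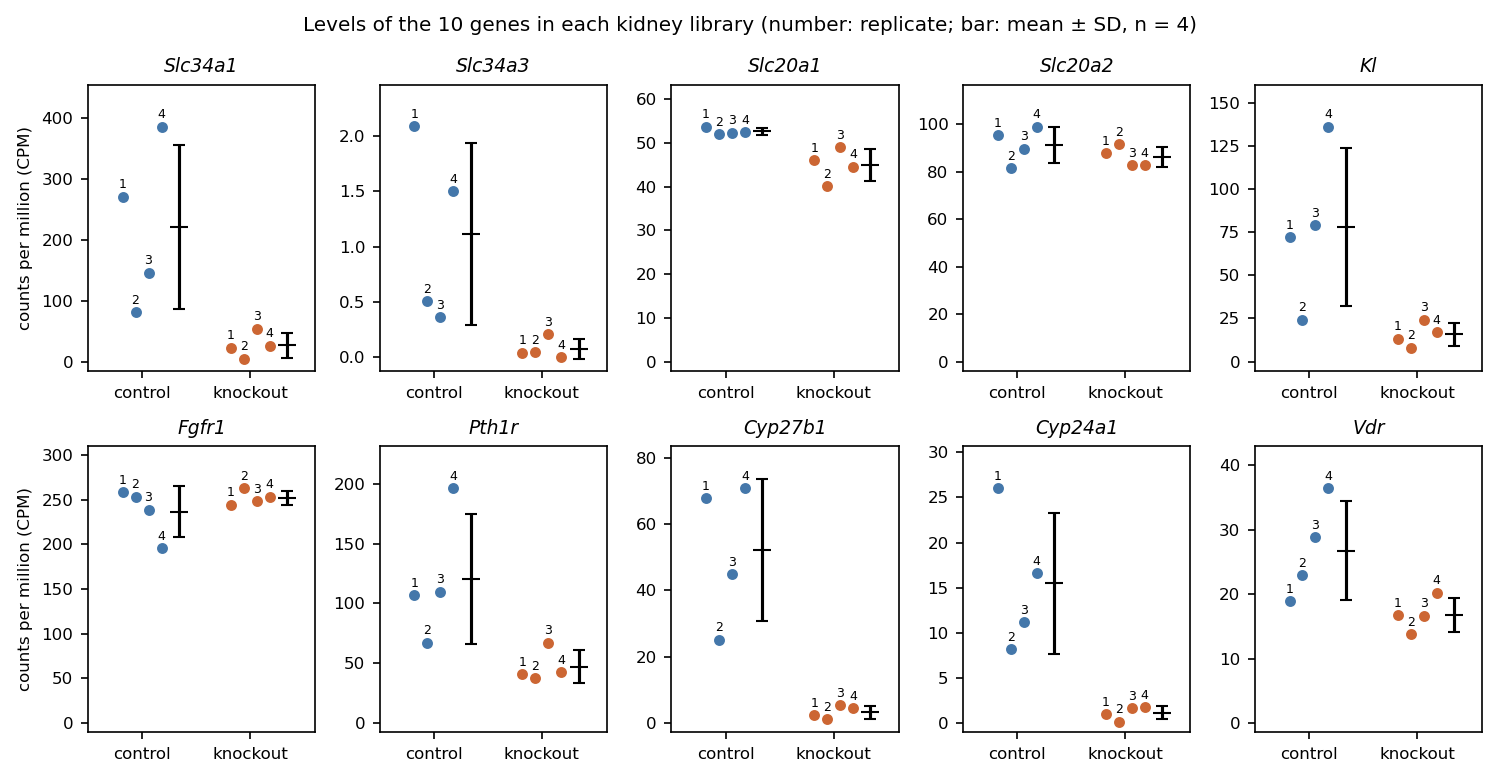
Level of each of the 10 genes in CPM on the vertical axis, for control (blue) and knockout (orange) libraries, with replicate numbers above the points and the mean and SD of 4 libraries beside them. The knockout points of Slc34a1, Slc34a3, Slc20a1, Cyp27b1 and Cyp24a1 all lie below the control points, and control replicate 2 is the lowest control in 7 of the 10 genes.

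The spread within a genotype was shared across genes. Control replicate 2 was the lowest control in 7 of the 10 genes, and control replicates 4 and 1 were the highest in 6 and 4. Knockout replicate 2 was the lowest knockout in 7 genes and knockout replicate 3 the highest in 6.

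Slc34a1 encodes the main phosphate transporter of the proximal tubule brush border (ENSMUSG00000021490, chromosome 13, 55399648 to 55414695, plus strand). Its level was 270.5, 80.9, 145.6 and 385 CPM in control replicates 1 to 4. In knockout replicates 1 to 4 it was 22.5, 4.42, 53.7 and 26.2 CPM. The groups did not overlap, although control replicate 2 and knockout replicate 3 were close, and levels within each group spread widely. The means were 220 ± 135 and 26.7 ± 20.3 CPM (SD, n = 4 each). Slc34a1 fell by 3.04 on the log2 scale (SE 0.70, 95% interval -4.61 to -1.46, adjusted p = 0.0267). The call was lost when any one of 5 libraries was left out, control replicates 1, 3 or 4 or knockout replicates 1 or 4, the largest adjusted p being 0.0857 without knockout replicate 4. In that fit, 0.819% of all genes were called. Pfn3, a testis profilin gene, lies within Slc34a1 on the opposite strand and had 280 counts in the controls and 62 in the knockouts. Whether the counting used strand is not given in the sources used here, so reads of the pair cannot be told apart, and Pfn3 had far fewer counts than Slc34a1.

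Slc34a3 encodes the second brush border transporter of this family (ENSMUSG00000006469, chromosome 2, 25228898 to 25234364, minus strand). It was scarce, with 51, 11, 9 and 33 counts in control replicates 1 to 4 and 1, 1, 6 and 0 counts in knockout replicates 1 to 4. These counts equal 2.09, 0.510, 0.363 and 1.5 CPM in controls and 0.0422, 0.0502, 0.208 and 0 CPM in knockouts. Every knockout library was below every control, and the 0 in knockout replicate 4 allows up to 0.108 CPM by counting error alone, the level of 3 counts. When genes with low counts were kept, edgeR gave a log2 fold change of -3.76 (adjusted p = 0.0182, SE 0.80), and DESeq2 gave -3.85 (adjusted p = 0.0004). Slc34a3 also passed the filter when any one knockout was left out, and it then missed the threshold without knockout replicates 1, 2 or 4, the largest adjusted p being 0.0776 without knockout replicate 4. The log2 ratio of Slc34a1 to Slc34a3 per kb was 7.31 ± 0.713 in the controls and 7.81 ± 1.90 in the knockouts. The difference of 0.49 was within the spread of the libraries (exact two-sided permutation test over 70 assignments, p = 0.686, adjusted p = 0.914 over 4 values). With 8 Slc34a3 counts in the knockouts, a moderate change of this ratio was not detectable at this depth.

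Slc20a1 and Slc20a2 encode the more widely expressed sodium-phosphate cotransporters, which supply cells with phosphate in many tissues. Slc20a1 (ENSMUSG00000027397, chromosome 2, 129198764 to 129211616, plus strand) stood at 53.7, 52.0, 52.3 and 52.4 CPM in controls and 46.0, 40.1, 49.0 and 44.5 CPM in knockouts. All 4 knockouts were lower than all 4 controls, by a small margin in knockout replicate 3. The log2 fold change was -0.23 (SE 0.07, 95% interval -0.38 to -0.07, adjusted p = 0.0567), which missed the threshold. Gm4430 and 9830144P21Rik overlap Slc20a1 on the opposite strand. Slc20a2 (ENSMUSG00000037656, chromosome 8, 22476788 to 22569612, plus strand) was measured at 95.4, 81.4, 89.8 and 99.0 CPM in controls and 87.7, 91.6, 82.9 and 82.9 CPM in knockouts. The groups overlapped, and the log2 fold change was -0.08 (SE 0.07, 95% interval -0.25 to 0.08, adjusted p = 0.443). Smim19 overlaps Slc20a2 on the opposite strand and had a log2 fold change of -0.04.

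The makeup of the 4 transporters' transcripts was compared per kb of exon. Slc34a1 and Slc34a3 together supplied 78.0%, 54.2%, 66.6% and 83.2% of the summed CPM per kb in control replicates 1 to 4. They supplied 24.6%, 6.22%, 44.2% and 28.5% in knockout replicates 1 to 4. Every knockout share was below every control share, with control replicate 2 and knockout replicate 3 nearest to each other. The mean share was 70.5% ± 12.9 and 25.9% ± 15.6 (SD, n = 4 each), a difference of -44.6 percentage points (exact two-sided permutation test, p = 0.0286, the smallest that 4 against 4 allows, adjusted p = 0.114 over 4 values). Slc20a2 made up 10.6% to 26.8% of the sum in the controls and 33.6% to 63.0% in the knockouts, while its own level differed little. The summed level itself was 48.9 to 151 CPM per kb in the controls and 23.4 to 39.6 CPM per kb in the knockouts.

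**Figure D2:**
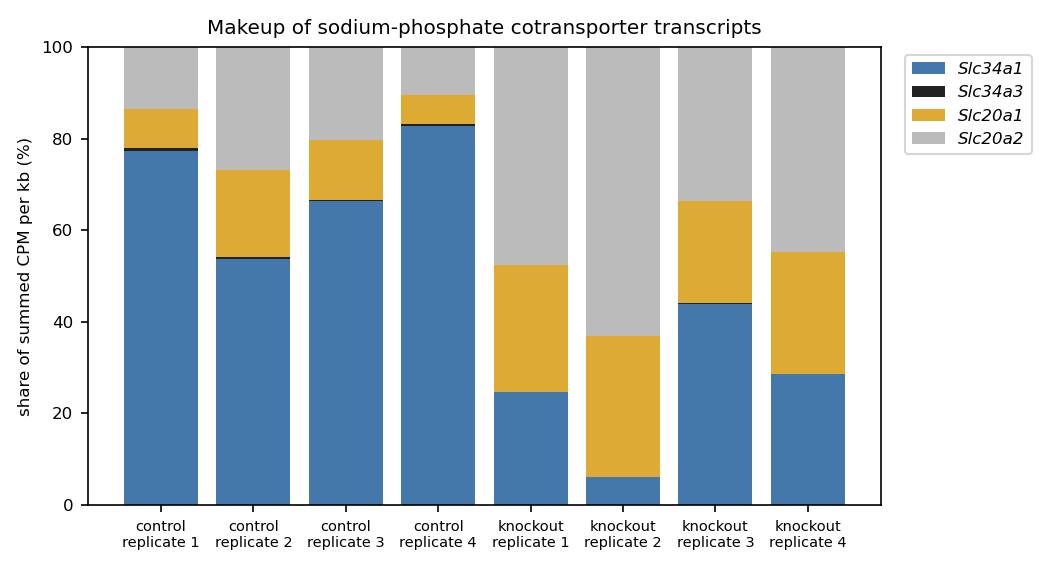
Stacked bars give, for each library on the horizontal axis, the percent of the summed CPM per kb of the 4 sodium-phosphate cotransporters that comes from each gene. Slc34a1 (blue) fills 53.7% to 82.8% of the control bars and 6.13% to 44.0% of the knockout bars.

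Kl encodes Klotho, which joins FGF receptors to form the receptor for FGF23 and is known from the distal and proximal tubule (ENSMUSG00000058488, chromosome 5, 150952607 to 150993817, plus strand). Its level was 72.3, 24.3, 78.9 and 136 CPM in control replicates 1 to 4 and 13.3, 8.03, 24.4 and 17.2 CPM in knockout replicates 1 to 4. The groups overlapped only where knockout replicate 3 reached control replicate 2. The means were 77.9 ± 45.9 and 15.7 ± 6.88 CPM, and Kl fell by 2.30 on the log2 scale (SE 0.50, 95% interval -3.42 to -1.18, adjusted p = 0.0227). Among the fits that left out a library, the call held without control replicate 2 and without knockout replicate 3. In the other 6 it was lost, the largest adjusted p being 0.0752 without knockout replicate 4. Those 6 fits called between 153 and 695 of all genes, against 2751 in the fit of all libraries.

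Fgfr1 encodes an FGF receptor that Klotho binds (ENSMUSG00000031565, chromosome 8, 25513654 to 25575718, plus strand). It was measured at 258, 253, 239 and 195 CPM in controls and 244, 263, 248 and 253 CPM in knockouts. The knockouts lay within the upper part of the control range or just above it, and control replicate 4 was low. The log2 fold change was 0.09 (SE 0.09, 95% interval -0.11 to 0.29, adjusted p = 0.472). Gm16159 overlaps Fgfr1 on the opposite strand, with 6 counts in the controls and 12 in the knockouts.

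Pth1r encodes the receptor for parathyroid hormone and its related peptide (ENSMUSG00000032492, chromosome 9, 110722085 to 110747145, minus strand). The controls had 107, 67.2, 110 and 196 CPM and the knockouts 40.7, 37.7, 67.3 and 42.7 CPM. Knockout replicate 3 equalled control replicate 2, and the other 3 knockouts were below all controls. The means were 120 ± 54.4 and 47.1 ± 13.6 CPM, and Pth1r fell by 1.35 on the log2 scale (SE 0.31, 95% interval -2.05 to -0.64, adjusted p = 0.0273). This call too held without control replicate 2 or knockout replicate 3 and was lost when any other library was left out, with an adjusted p of up to 0.0877. The fits that lost it also lost the call of Kl, and they called between 153 and 695 of all genes. Myl3 overlaps Pth1r on the opposite strand, with 30 counts in the controls and 18 in the knockouts.

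Cyp27b1 encodes the mitochondrial enzyme that makes calcitriol (ENSMUSG00000006724, chromosome 10, 127048250 to 127053006, plus strand). Its level was 67.7, 25.1, 45.0 and 70.8 CPM in control replicates 1 to 4. In knockout replicates 1 to 4 it was 2.32, 1.10, 5.43 and 4.39 CPM. The lowest control was well above the highest knockout, and here control replicate 2 and knockout replicate 3 did not meet. The means were 52.1 ± 21.4 and 3.31 ± 1.96 CPM, a 15.7-fold lower mean. Cyp27b1 fell by 3.94 on the log2 scale (SE 0.49, 95% interval -5.04 to -2.85, adjusted p = 0.00692). It was called in all 19 alternative fits, with log2 fold changes of -4.50 to -3.68 and a largest adjusted p of 0.0329.

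Cyp24a1 encodes the enzyme that inactivates calcitriol (ENSMUSG00000038567, chromosome 2, 170482708 to 170497145, minus strand). The controls had 26.0, 8.16, 11.2 and 16.6 CPM and the knockouts 1.01, 0.151, 1.66 and 1.76 CPM, the second knockout value resting on 3 counts. No knockout library came near the lowest control. The means were 15.5 ± 7.84 and 1.15 ± 0.742 CPM, a 13.5-fold lower mean. Cyp24a1 fell by 3.71 on the log2 scale (SE 0.58, 95% interval -5.01 to -2.41, adjusted p = 0.0121), and it too was called in all 19 alternative fits, with a largest adjusted p of 0.0481. Pfdn4 overlaps Cyp24a1 on the opposite strand at 25.8 CPM in controls and 23.7 CPM in knockouts. Its log2 fold change was -0.12 (adjusted p = 0.295), and without strand the reads of the pair cannot be told apart.

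The enzymes that make and inactivate calcitriol thus both fell, and their ratio was compared library by library. The log2 ratio of Cyp24a1 to Cyp27b1 was -1.38, -1.61, -2.0 and -2.09 in control replicates 1 to 4 and -1.12, -2.26, -1.65 and -1.27 in knockout replicates 1 to 4. The ranges overlapped, and the means of -1.77 ± 0.333 and -1.58 ± 0.510 differed by 0.19 (exact two-sided permutation test, p = 0.571, adjusted p = 0.914 over 4 values). Knockout replicate 2, with the lowest levels of both genes, had the lowest ratio.

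Vdr encodes the nuclear receptor for calcitriol (ENSMUSG00000022479, chromosome 15, 97854425 to 97910630, minus strand). It stood at 18.9, 23.0, 28.9 and 36.5 CPM in controls and 16.7, 13.8, 16.7 and 20.2 CPM in knockouts. Only knockout replicate 4 exceeded a control, the lowest one. The log2 fold change was -0.67 (SE 0.20, 95% interval -1.12 to -0.21, adjusted p = 0.0550). Vdr was called in 6 of the 19 alternative fits, among them the fit without control replicate 2 (adjusted p = 0.0267).

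**Figure D3:**
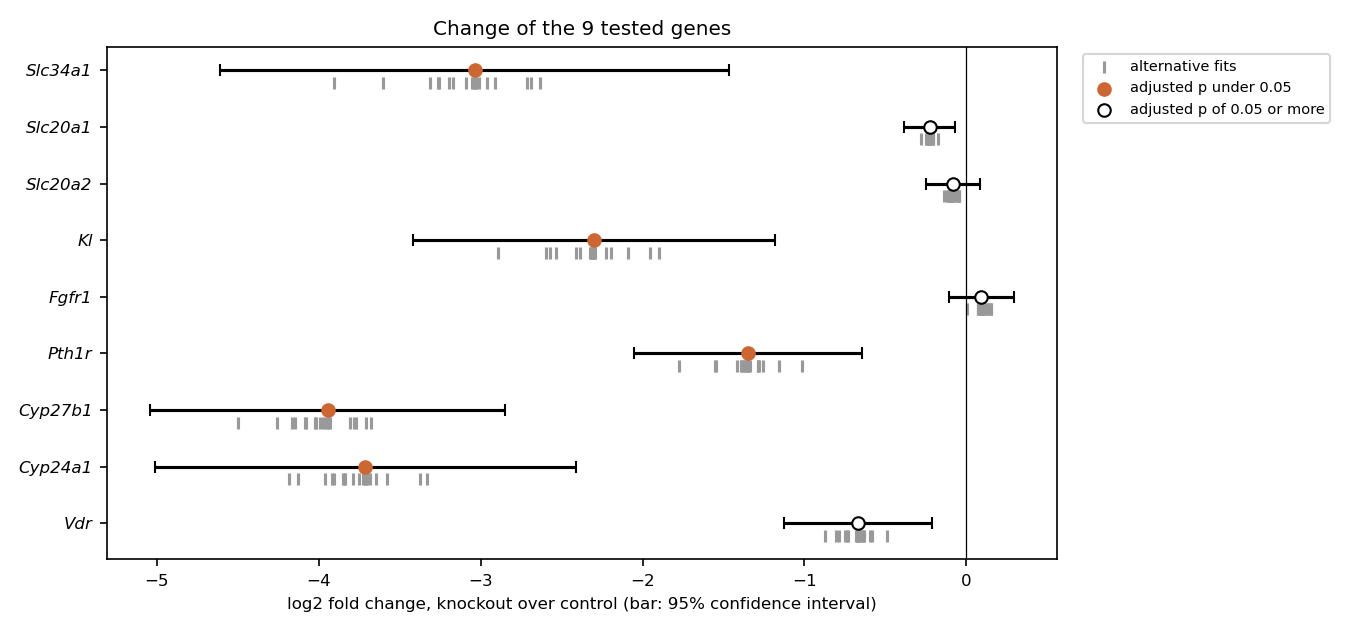
Log2 fold change of knockout over control on the horizontal axis for the 9 tested genes, with 95% confidence intervals; filled points have an adjusted p under 0.05, and grey ticks are the values under the 19 alternative fits. The ticks of Cyp27b1 run from -4.50 to -3.68 and those of Fgfr1 and Slc20a2 stay close to 0.

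How far each count of calls rested on single libraries was measured by leaving them out. Without control replicate 2, 7 of the 9 genes were called, while 37.4% of all genes were called in that fit. With both control replicate 2 and knockout replicate 3 left out, 7 were called against 42.7% of all genes. Without knockout replicate 4, only Cyp27b1 and Cyp24a1 were called, against 0.819% of all genes. Within the 5 libraries that held Y-linked transcripts, 3 controls and 2 knockouts, Kl, Pth1r, Cyp27b1 and Cyp24a1 were called against 16.7% of all genes. In that fit the log2 fold changes were -2.54 for Kl (adjusted p = 0.0272), -1.38 for Pth1r (adjusted p = 0.0458), -4.15 for Cyp27b1 (adjusted p = 0.0161) and -4.18 for Cyp24a1 (adjusted p = 0.0230). Slc34a1 had -3.17 there and missed the threshold (adjusted p = 0.0707). In the other 3 libraries, 1 control and 2 knockouts, the log2 ratio of means was -1.73 for Slc34a1, -0.67 for Kl, -0.69 for Pth1r, -2.87 for Cyp27b1 and -2.47 for Cyp24a1. That control is replicate 2, so these 3 libraries give no test. With adrenal marker level as a covariate, Kl, Cyp27b1 and Cyp24a1 kept their calls, while Slc34a1 and Pth1r did not. Their log2 fold changes in that fit were -3.09 (adjusted p = 0.0552) and -1.37 (adjusted p = 0.0567), no smaller than without the covariate.

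Per kb of exon, the controls had their highest level among these genes in Slc34a1, at a mean of 71.6 CPM per kb. Pth1r (41.1), Fgfr1 (23.9), Cyp27b1 (20.3), Slc20a2 (14.7), Slc20a1 (9.42), Kl (8.36), Vdr (4.74), Cyp24a1 (4.35) and Slc34a3 (0.473) followed, all in CPM per kb. Between neighbours in this order, only Slc20a2 and Slc20a1, and Cyp24a1 and Slc34a3, had ranges that did not overlap. In the knockouts, Fgfr1 came first at 25.5 CPM per kb, followed by Pth1r at 16.1, Slc20a2 at 13.9 and Slc34a1 at 8.66 CPM per kb. Slc20a1 (8.05), Vdr (2.98), Kl (1.68), Cyp27b1 (1.29), Cyp24a1 (0.322) and Slc34a3 (0.0318) came after them in CPM per kb. Only Fgfr1 and Pth1r, and Slc20a1 and Vdr, were neighbours without overlapping ranges there. Slc34a1 was thus at the top of the order in the controls and below 3 other genes in the knockouts.

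Markers of the proximal tubule fell, as did Slc34a1, Kl, Pth1r, Cyp27b1 and Cyp24a1, while Slc20a2 and Fgfr1 changed little. All 16 tested markers of 17 listed, among them the transporters Slc5a2 and Slc22a6 and the factor Hnf4a, fell, with a median log2 fold change of -2.98. Their summed level was 542 to 2303 CPM in controls and 77.6 to 365 CPM in knockouts. Their mean log2 level was 5.58, 3.92, 5.01 and 6.01 in control replicates 1 to 4 and 1.76, 0.69, 2.92 and 2.08 in knockout replicates 1 to 4, the order of libraries seen for Slc34a1. On that scale, log2 (CPM + 0.1), Slc34a1 exceeded the marker mean by 2.5, 2.42, 2.18 and 2.57 in the controls and 2.73, 1.49, 2.83 and 2.64 in the knockouts. The means of 2.42 ± 0.172 and 2.42 ± 0.627 differed by 0.00 (exact two-sided permutation test, p = 1). Knockout replicates 1, 3 and 4 lay above every control, and knockout replicate 2 lay below every control. The means were equal only with knockout replicate 2 included. Relative to the same markers the difference of knockout and control was -0.78 for Cyp27b1 and -0.59 for Cyp24a1. It was 1.09 for Kl, 1.98 for Pth1r, 2.63 for Vdr, 3.19 for Slc20a2 and 3.37 for Fgfr1. The part of these markers, and of the cells they mark, in the results was not tested.

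**Figure D4:**
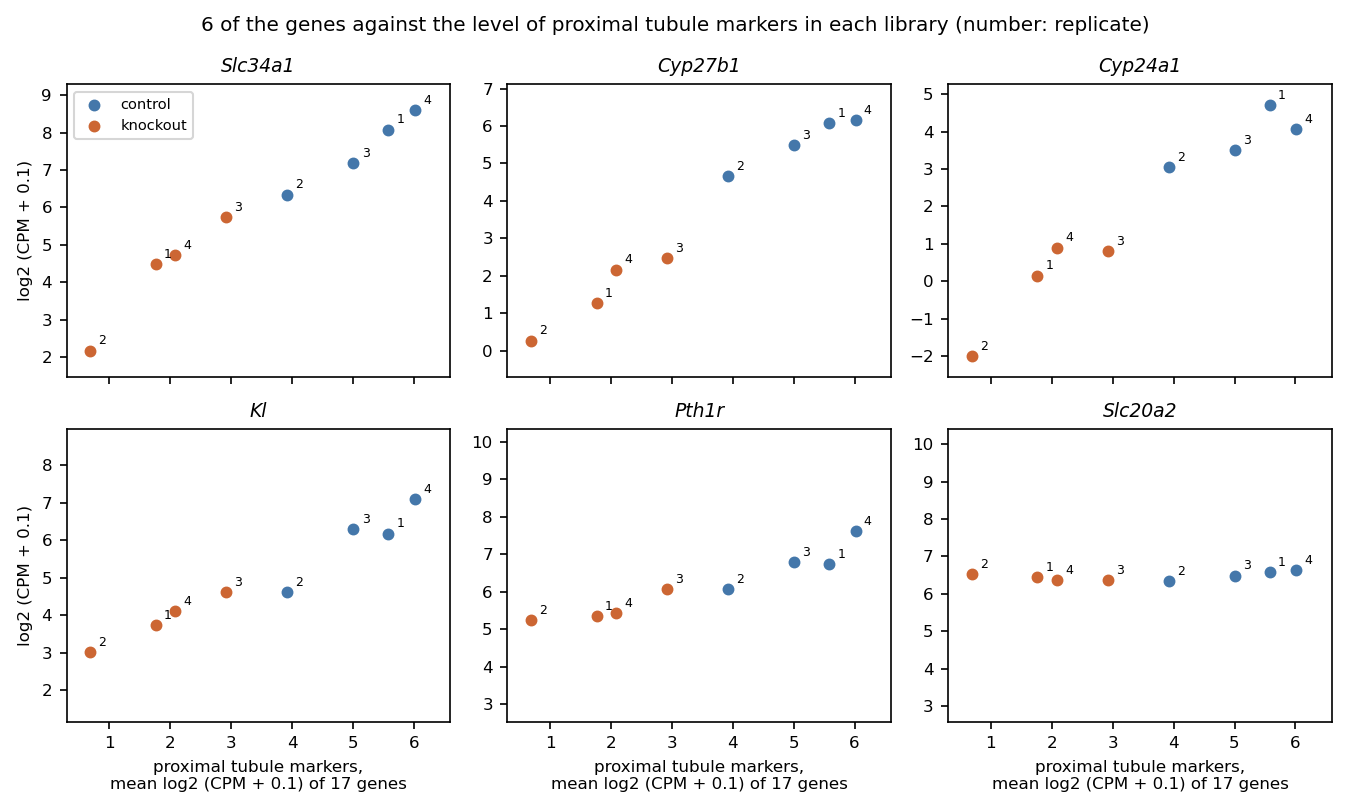
Each point is a library, with the mean log2 level of 17 proximal tubule markers on the horizontal axis and the log2 level of a gene on the vertical axis, all vertical axes spanning the same range. Slc34a1 exceeds the marker mean by 2.18 to 2.57 in the controls and by 2.64 to 2.83 in knockout replicates 1, 3 and 4. In knockout replicate 2 it is nearer to the markers, at 1.49, and Slc20a2 stays level.

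Kl is also known from the distal convoluted and connecting tubule, and markers of these segments were set beside it. Relative to them, the difference of knockout and control was -1.18 for Kl on the log2 scale, opposite in sign to its difference relative to proximal tubule markers. Of 7 tested markers, 3 fell, and the median log2 fold change was -0.42. The mean log2 level of all 8 listed was 4.06 to 5.02 in controls and 3.26 to 4.14 in knockouts. Their summed level was 633 to 859 CPM in controls and 611 to 768 CPM in knockouts. Calb1 was a large part of that sum, at 405 to 523 CPM in controls and 462 to 669 CPM in knockouts. Beside these and the following marker counts, 8.27% of all genes tested were called lower and 6.61% higher. The thick ascending limb had 5 of 7 markers lower with a median of -2.42. Collecting duct markers had 0 of 9 lower and 1 higher in edgeR, with 2 lower at an unadjusted p under 0.05. Podocytes had 2 of 6 and endothelium 1 of 7 markers lower, and 5 and 4 were lower at an unadjusted p under 0.05. Nephron progenitor markers were split, with 3 of 8 lower and 1 higher. Stromal markers had 2 of 8 higher, at a summed 2826 to 3911 CPM in controls and 3229 to 5445 CPM in knockouts, and leukocyte markers 2 of 6 higher. At an unadjusted p under 0.05, 5 stromal and 3 leukocyte markers were higher. Pth, the defining marker of the parathyroid gland, was at 0 in all 8 libraries. No adrenal marker of 10 tested was called by edgeR, with 6 higher at an unadjusted p under 0.05 and the high sums confined to the 3 libraries given above. The part of these cell types in the results was not tested.

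The genes nearest to each member in pattern were taken as those with the smallest root mean square difference of log2 CPM over the 8 libraries, each gene centred on its own mean. For Slc34a1 they included Tmem174 (0.207). For Cyp27b1 they were Cyp2d26 (0.286), Slc17a1 (0.323) and the gluconeogenic enzyme Fbp1 (0.335). Cyp24a1 lay nearest to Cyp27b1 (0.398), followed by Fbp1 (0.438) and G6pc (0.442). Kl lay nearest to Cgref1 (0.214), Acaa1b (0.228) and the proton pump subunit gene Atp6v0a4 (0.228), and Pth1r to Car2 (0.103), Slc25a10 (0.122) and Prss8 (0.125). Differences were smaller for genes that moved less, so these values rank genes only within a member.

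The 6 lists of other genes in these pathways hold 70 genes, of which 69 were matched, and each is described by its counts beside the 8.27% of all genes called lower and the 6.61% called higher. These shares are from edgeR. Over all genes, DESeq2 called 2517 lower and 1977 higher of 32438, and limma-voom called 4241 lower and 4061 higher of 18485. Among phosphate transport partners, which include the scaffolds that hold Slc34a1 at the brush border, 8 of 11 tested genes fell and 0 rose, with a median log2 fold change of -1.71. DESeq2 and limma-voom each called 9 lower and 0 higher, and 0 were higher at an unadjusted p under 0.05. The organic anion and phosphate transporters Slc17a1 (31.5 ± 16 against 2.57 ± 1.76 CPM, log2 fold change -3.59, adjusted p = 0.0121, SE 0.56) and Slc17a3 (11.6 ± 7.71 against 0.713 ± 0.530 CPM, -3.97, adjusted p = 0.0132, SE 0.65) were lower in all knockouts than in all controls. Slc9a3r1, a scaffold of Slc34a1, fell by 0.80 on the log2 scale (adjusted p = 0.0154, SE 0.14), from 117 ± 22.5 to 67.0 ± 8.37 CPM. The count of lower genes was 0 without knockout replicate 4 and up to 9 without other libraries. The phosphate exporter Xpr1, with 56.0 ± 4.74 and 62.2 ± 6.38 CPM, overlapped between groups (log2 fold change 0.15, adjusted p = 0.260).

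In the FGF23 and Klotho system, edgeR called 0 of 10 tested genes, and the median log2 fold change was -0.14. At an unadjusted p under 0.05, 4 were lower and 1 was higher. DESeq2, which tested 14 genes of this list, called 3 lower and 1 higher, and limma-voom called 5 of 10 lower and 3 higher. Nearest to the threshold were Fgfr3, an FGF receptor (-1.09, adjusted p = 0.0510, SE 0.32), Galnt3, which glycosylates FGF23 (-1.11, adjusted p = 0.0549, SE 0.34), and Frs2, an adaptor of FGF receptors (0.27, adjusted p = 0.0550, SE 0.08). Fgf23 itself was at 0 to 0.139 CPM in controls and 0 to 0.180 CPM in knockouts and was not tested. Among genes that FGF receptor signalling is known to induce, 4 of 10 rose, against 6.61% of all genes, and 0 fell, and all 10 had positive log2 fold changes with a median of 0.34. The 4 were feedback inhibitors of the pathway. Spry2 went from 61.3 ± 3.67 to 77.0 ± 5.96 CPM (log2 fold change 0.33, adjusted p = 0.0268, SE 0.08) and Dusp6 from 109 ± 10.02 to 139 ± 15.6 CPM (0.35, adjusted p = 0.0437, SE 0.10), both without overlap between groups. For Dusp6 the lowest knockout, at 117.4 CPM, was only just above the highest control, at 117.3 CPM. The share of all genes with such an upward separation is not given here, and 9.58% were separated downward. Spred1 had a log2 fold change of 0.56 (adjusted p = 0.0442, SE 0.16). Spred2, named after its value was seen, had 0.47 (adjusted p = 0.0463, SE 0.13). Leaving out 1 library gave a count of 0 in 6 of 8 cases. Those 6 fits called between 153 and 695 of all genes, against 2751 with all 8 libraries. The adrenal covariate, with 1196 of all genes called, gave 0, with a median of 0.35 and all 10 genes still positive. Without control replicate 2, without knockout replicate 4 and within the libraries with Y-linked transcripts, 9 genes were positive and 1 negative. With all 8 libraries and no covariate, no gene was lower at an unadjusted p under 0.05, and limma-voom called 7 higher and 0 lower.

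In parathyroid hormone signalling, 1 of 8 tested genes rose and 0 fell, with a median of -0.09. At an unadjusted p under 0.05, 2 were lower, DESeq2 called 0 of 9 tested genes lower and limma-voom called 1 lower. The gene that rose was Pthlh, which encodes the other ligand of Pth1r, from 1.94 ± 0.551 to 4.21 ± 1.21 CPM (log2 fold change 1.12, adjusted p = 0.0322, SE 0.28), with 1 knockout inside the control range. This call was lost with the adrenal covariate, at a log2 fold change of 1.13 (adjusted p = 0.0700), and without any one of 6 libraries. Gna11, a G protein subunit, had a log2 fold change of -0.25 (adjusted p = 0.0922) and Sgk1, a kinase gene, -1.06 (adjusted p = 0.126).

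In vitamin D uptake and activation, 3 of 14 genes fell and 0 rose, and the median was 0.01. DESeq2 and limma-voom each called 2 higher, and 3 were higher at an unadjusted p under 0.05. The 3 genes that fell form the receptor complex by which the proximal tubule takes up vitamin D with its binding protein. Cubn fell from 52.3 ± 28.7 to 5.99 ± 4.77 CPM (-3.10, adjusted p = 0.0183, SE 0.59), Lrp2 from 242 ± 104 to 51.3 ± 28 CPM (-2.24, adjusted p = 0.0205, SE 0.46) and Amn from 38.5 ± 20.6 to 6.91 ± 5.22 CPM (-2.46, adjusted p = 0.0305, SE 0.60), each without overlap between groups. The count was between 0 and 3 when a library was left out. Fdx1 and Fdxr, which pass electrons to Cyp27b1 and to adrenal steroid enzymes, ranged from 25.5 to 230 CPM and from 8.08 to 71.9 CPM in knockouts, highest where adrenal markers were highest. Rxra, the partner of Vdr, was at 88.8 ± 4.0 and 88.1 ± 13.1 CPM.

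Among calcium transport genes and vitamin D targets, 3 of 10 fell and 1 rose, with a median of -0.11. S100g, the calcium-binding protein calbindin of the distal tubule, fell from 275 ± 124 to 50.6 ± 14.3 CPM (-2.44, adjusted p = 0.0101, SE 0.35) and was called in all 19 alternative fits. Trpv5, the apical calcium channel of the distal tubule, fell from 16.7 ± 10.2 to 2.64 ± 1.01 CPM (-2.66, adjusted p = 0.0172, SE 0.49). Cldn2, which forms the paracellular cation pore of the proximal tubule, fell from 111 ± 51.6 to 12.9 ± 8.85 CPM (-3.09, adjusted p = 0.0186, SE 0.59). Atp2b4, a calcium pump named after its value was seen, rose from 40.9 ± 4.71 to 55.9 ± 5.29 CPM (0.45, adjusted p = 0.0245, SE 0.10). Calb1, the larger distal calbindin, was at 482 ± 52.9 and 574 ± 85.6 CPM (0.25, adjusted p = 0.168, SE 0.12), so the members of this list did not share a direction. When 1 library was left out, between 1 and 4 genes of the list were lower and between 0 and 2 higher, and S100g was the gene still called without control replicate 3 or knockout replicate 4. Of the 26 genes named from the lists, 5 overlap another annotated gene: Fgfr3, Cubn, S100g, Atp2b4 and Xpr1. Xpr1, Fgf23, Fdx1, Fdxr, Rxra and Calb1 were chosen after their values were seen.

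**Figure D5:**
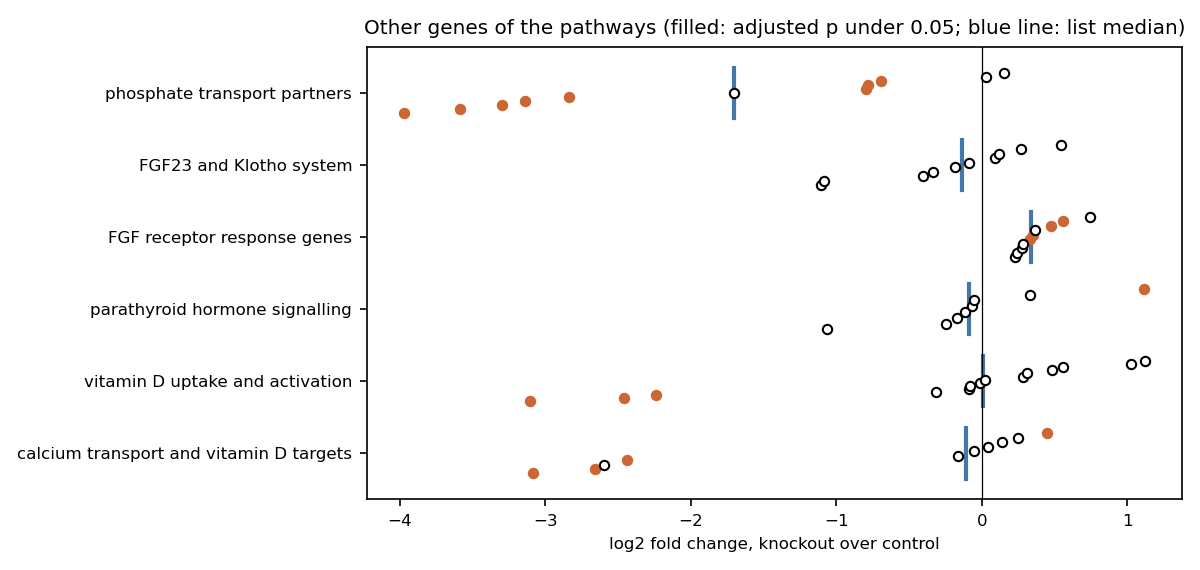
Log2 fold change of knockout over control on the horizontal axis for each tested gene of the 6 pathway lists; filled points have an adjusted p under 0.05, and the vertical blue lines are list medians. Filled points lie to the left for phosphate transport partners (median -1.71) and to the right for FGF receptor response genes (median 0.34).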

How the data were processed

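Transcripts were measured by mRNA sequencing of 8 mouse kidney libraries, 4 per genotype. Per the labels' protocols, RNA from frozen tissue was enriched with oligo-dT beads and made into libraries with a NEBNext Ultra kit. The deposited tables hold unnormalized whole-number counts of reads for each gene, with exon positions and gene length, per the file headers. The submitters' processing notes name Trimmomatic 0.36, STAR 2.5.2b, featureCounts, Subread 1.5.2, DESeq2 and GRCm38. How strand and reads that match several genes were treated is not given in the sources used here. Symbols were found for 48970 of 49315 gene IDs, and 90.8% had the bounds of GENCODE M21. The table of the whole series differed from the tables per library in 0 cells. Between 28 pairs of libraries the chi-square per degree of freedom ran from 12.0 to 103, so none was present more than once.

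After TMM scaling and filterByExpr at default settings, 18485 genes entered edgeR 4.0.16 (quasi-likelihood test, genotype as the only term, R 4.3.3). Benjamini-Hochberg adjustment covered those 18485 genes, and a call means an adjusted p under 0.05. Where no tool is named beside an adjusted p, it is from edgeR. CPM values use these scaled totals, and CPM per kb divides them by the deposited gene length, the summed exons of all transcripts. A set of 4 values per library was compared by exact two-sided permutation tests, with a pseudocount of 0.1 CPM on the log2 scale. Because Slc34a3 was 0 in a library, 0.5 counts were added to both genes of its ratio, a change from the planned formula. The scripts were tested on simulated data.

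The alternatives were DESeq2 size factors in edgeR, DESeq2 1.42.0, limma-voom (limma 3.58.1) with sample weights, no filter, a mean of at least 1 CPM, the replicate number as a block, covariates for Y-linked and for adrenal transcripts, only the 5 libraries with Y-linked transcripts, each library left out, 2 libraries left out together, and the series table, 19 in all. The named genes are the 10 members, Kdm1a, up to 3 genes with the smallest adjusted p of each of 6 lists, and the 3 genes nearest to each member. Some genes that this rule picks are not reported here. The members and lists were chosen with earlier results of these data known. The labels do not say whether replicate numbers pair the libraries, so the libraries were treated as unpaired, with the block among the alternatives.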

Additional observations from a re-analysis of the deposited data

Results flagged for a closer look

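Of the 30 groups of 4 values examined, 2 held a library far from the other 3, by a gap to the nearest value that passes Dixon's criterion at 95%. Chance flags about 1 in 20 such groups. Pth1r stood at 67.3 CPM in knockout replicate 3, against 37.7 to 42.7 CPM in the other knockouts, at the level of control replicate 2. Slc34a1 exceeded the proximal tubule marker mean by 1.49 on the log2 scale in knockout replicate 2, against 2.64 to 2.83 in the other knockouts. That library also had the lowest levels of both Slc34a1 and the markers, and the cause was not tested.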

How the results depend on the processing

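None of the 9 tested members changed direction under the 19 alternatives, and Slc34a3 was lower in each of the 8 that could test it, but several counts moved, and the cause was not tested. In place of 2751 genes called, DESeq2 called 4494, limma-voom with sample weights 8302, the fit with the adrenal covariate 1196, and the fit with both control replicate 2 and knockout replicate 3 left out 7903. Fits that left out 1 library called between 153 and 7084 genes. In place of 5 members, DESeq2 called 8, Slc34a3 included, the adrenal covariate left 3, and the fits that left out 1 library called between 2 and 7. The difference of the Slc34 share was -50.7 to -38.0 percentage points when 1 library was left out, and -56.1 with both control replicate 2 and knockout replicate 3 left out (exact p = 0.1, the smallest that 3 against 3 allows). With the replicate block the same difference was -44.6 (exact sign-flip permutation test, p = 0.125, the smallest that 4 pairs allow). The replicate block called 3229 genes and 6 members, adding Vdr (adjusted p = 0.0224). The correlations of deviations from the group means between same-numbered libraries were -0.11, 0.33, 0.23 and -0.06. The labels do not state a pairing, and these values cannot decide whether the libraries were paired. Depth limits Slc34a3, with 8 counts in the knockouts, and the knockout level of Cyp24a1. The number of libraries, and the position of control replicate 2 and knockout replicate 3 near each other, limit the calls of Slc34a1, Kl and Pth1r. Counts per gene cannot tell a change within tubule cells from a change in their number.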
